A study of Saccharomyces cerevisiae with 6 samples.

Results

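The genes described here encode the subunits found in RNA polymerase I and not in the other nuclear RNA polymerases, together with Rrn3, the factor that makes the enzyme ready to initiate. They are RPA190, RPA135, RPA12, RPA14, RPA34, RPA43, RPA49 and RRN3, chosen by name with earlier results of these data known. All 8 were found among the 6400 named entries of the table, and all 8 passed the filter on low values. Transcript levels were read from poly(A) RNA of the W303 strain of Saccharomyces cerevisiae in 6 libraries. The libraries form the groups T1, T2 and T3, with replicates A and B in each. Every title carries the word arrest, and the series' design says that the cultures had 3 mean cell sizes. Genotype beyond the strain, the means of arrest, the medium, the time and the size reached are not given in the sources used here, so the groups are compared by name and not by size. Strain and arrest are shared by all groups, and no unarrested control was analysed. The W303 label cannot be checked from gene-level values. Nothing states that replicates came from separate cultures, so p-values measure the spread between these libraries, which may be technical. That spread was estimated in large part from other genes.

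RNA polymerase I transcribes the tandem ribosomal DNA repeats in the nucleolus and makes the precursor of the large ribosomal RNAs. It shares a set of small subunits with RNA polymerases II and III and adds its own large subunits, a stalk, and a heterodimer that resembles initiation factors of RNA polymerase II. Rrn3 binds the stalk and brings the enzyme to the promoter-bound core factor, a step through which yeast adjusts ribosome synthesis to growth. The transcripts measured here are the messenger RNAs of these proteins, which RNA polymerase II makes. Ribosomal RNA itself was not measured.

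Upstream of the genes, 2 short motifs were looked for because they are known from genes of ribosome synthesis: GATGAG, the core of the PAC element, which takes its name from polymerases A and C, and AAAATTTT, the core of the ribosomal RNA processing element. Both strands were searched from 250 bases before to 50 bases after the start codon in the RefSeq sequence of build R64, the build that the submitters' processing notes name. That sequence is of the S288C strain and not of W303. The PAC core was present upstream of 7 of the 8 genes, against 20.4% of 6001 protein-coding genes. The other core was present upstream of the same 7 genes, against 9.0% of all windows, and 4.4% of all windows held both. RPA12 was the gene with 0 matches to either. A match is only a match of letters in this window. The motifs were chosen as already known from genes of this kind, so these shares are a description and no test. The PAC core was also in the windows of 8 of 10 genes specific to RNA polymerase III and of 1 of 7 specific to RNA polymerase II. It was in those of 6 of 8 other initiation factor genes of RNA polymerase I. For genes of rDNA factors it was 4 of 10, and for genes of subunits shared between polymerases 2 of 7. The following stretches of 30 bases, written 5′ to 3′ on the strand of the gene, show 1 PAC core match for each gene in capitals.
RPA190, chrXV:960803-960832, plus strand: tttatttcaaatCTCATCtcatctcttaaa
RPA135, chrXVI:581288-581317, minus strand: gcatcttagagaCTCATCtcatctcttaat
RPA14, chrIV:769454-769483, plus strand: gattatagaggtCTCATCggtaaggcagag
RPA34, chrX:140315-140344, plus strand: aaaaattttatcGATGAGcattgaatagct
RPA43, chrXV:960347-960376, minus strand: tgaaaagattccGATGAGggtgtatgggtg
RPA49, chrXIV:182721-182750, minus strand: attttttattgcGATGAGctgaaattttcc
RRN3, chrXI:208061-208090, plus strand: aaaagatattttGATGAGcatctctcgttt

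In RPA190, RPA135 and RPA14 the match shown is to the opposite strand, and in the other genes it is to the gene's own strand. RPA190 and RPA135 each held a pair of PAC core matches that overlap by a base. RPA135 had a further match across its start codon. These repeated matches lay in the longest run of letters that any pair of the 8 windows shared, 17 bases long, which is printed next in capitals. Among the 6001 windows it was found in 2, those of RPA190 and RPA135. It ended 155 bases before the start codon of RPA190 and 92 bases before that of RPA135.
Run shared by RPA190 and RPA135: CTCATCTCATCTCTTAA

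In RPA34 and RPA49 the 2 motifs stood close together. The nearer processing element core of RPA34 ended 113 bases and its PAC core 104 bases before the start codon, and in RPA49 the distances were 137 and 124 bases. The stretches around those cores, with AAAATTTT in capitals, are given for comparison with the PAC lines above.
RPA34, chrX:140305-140334, plus strand: taaagaaatgaAAAATTTTatcgatgagca
RPA49, chrXIV:182735-182764, minus strand: cacccgcgctgAAAATTTTttattgcgatg

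The genes lie on 6 chromosomes, and a pair of them are neighbours. RPA43 (YOR340C, chromosome XV, 959202 to 960182) and RPA190 (YOR341W, 960987 to 965981) are transcribed away from each other across the 804 bases between their coding spans. The other genes are RPA135 (YPR010C, chromosome XVI, 577585 to 581196), RPA12 (YJR063W, chromosome X, 555195 to 555572) and RPA34 (YJL148W, chromosome X, 140437 to 141138). RPA14 (YDR156W) lies on chromosome IV, 769525 to 769938, RPA49 (YNL248C) on chromosome XIV, 181361 to 182608, and RRN3 (YKL125W) on chromosome XI, 208247 to 210130. These are coding spans, from 378 nucleotides for RPA12 to 4995 for RPA190, each in 1 exon. The strand setting of the authors' counting is not given in the sources used here, and no gene in the annotation overlaps any of the 8 on the opposite strand. RPA14 overlaps YDR157W by 8 bases on its own strand.

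Values are TPM, a transcript's share of a library after division by gene length, scaled to the same total in each library. A level is therefore a share of the poly(A) RNA counted, and a change in RNA per cell is not visible in it. Whole fragment numbers were recovered from TPM and gene length, and among open reading frames counted 500 times or less, 99.84 to 99.93% came within 0.1 of a whole number. The libraries held 17864307 to 23520519 fragments on open reading frames. The 8 genes had 851 fragments (RPA14 in T3 replicate A) to 15851 fragments (RPA135 in T1 replicate A), which gives counting errors of 0.79 to 3.43% for single values. Cytosolic ribosomal protein genes, 138 in number, took 41.8 to 43.8% of all TPM in T1, 39.1 to 41.5% in T2 and 35.2 to 37.1% in T3. As this share was smaller in T3, other genes took a larger share, and the median change over the 6046 genes tested was 0.088 on the log2 scale from T1 to T3. Log2 changes are differences of log2(TPM + 1), and a gene is said to have risen or fallen where limma's p-value, adjusted over all genes tested by the Benjamini-Hochberg method, was under 0.05.

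T3 was compared with T1 to see how the polymerase I genes stood in the outermost groups. Of the 7 subunit genes, 6 were lower in T3, and RRN3 was higher. RPA34, RPA135 and RPA190 fell most, by 1.66-, 1.62- and 1.58-fold, followed by RPA49 (1.38-fold) and RPA43 (1.26-fold). RPA12 fell 1.17-fold, and RPA14, which did not pass, was 1.17-fold lower. Among all genes tested, 16.9% were lower and 31% were higher in this comparison, so that falls were the rarer call. That split depended on scaling: 35.3% of all calls were falls on TPM as deposited, 49.6% after median of ratios scaling, 54.8% after quantile normalization and 57.9% when scaled without ribosomal protein genes. The median log2 change was -0.40 over the 8 genes and 0.09 over all genes tested. When the libraries were scaled without the ribosomal protein genes, all 7 subunit genes passed as lower and RRN3 did not pass. Without T3 replicate B, 4 of the 8 genes passed as lower, against 6 with it.

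**Figure D1:**
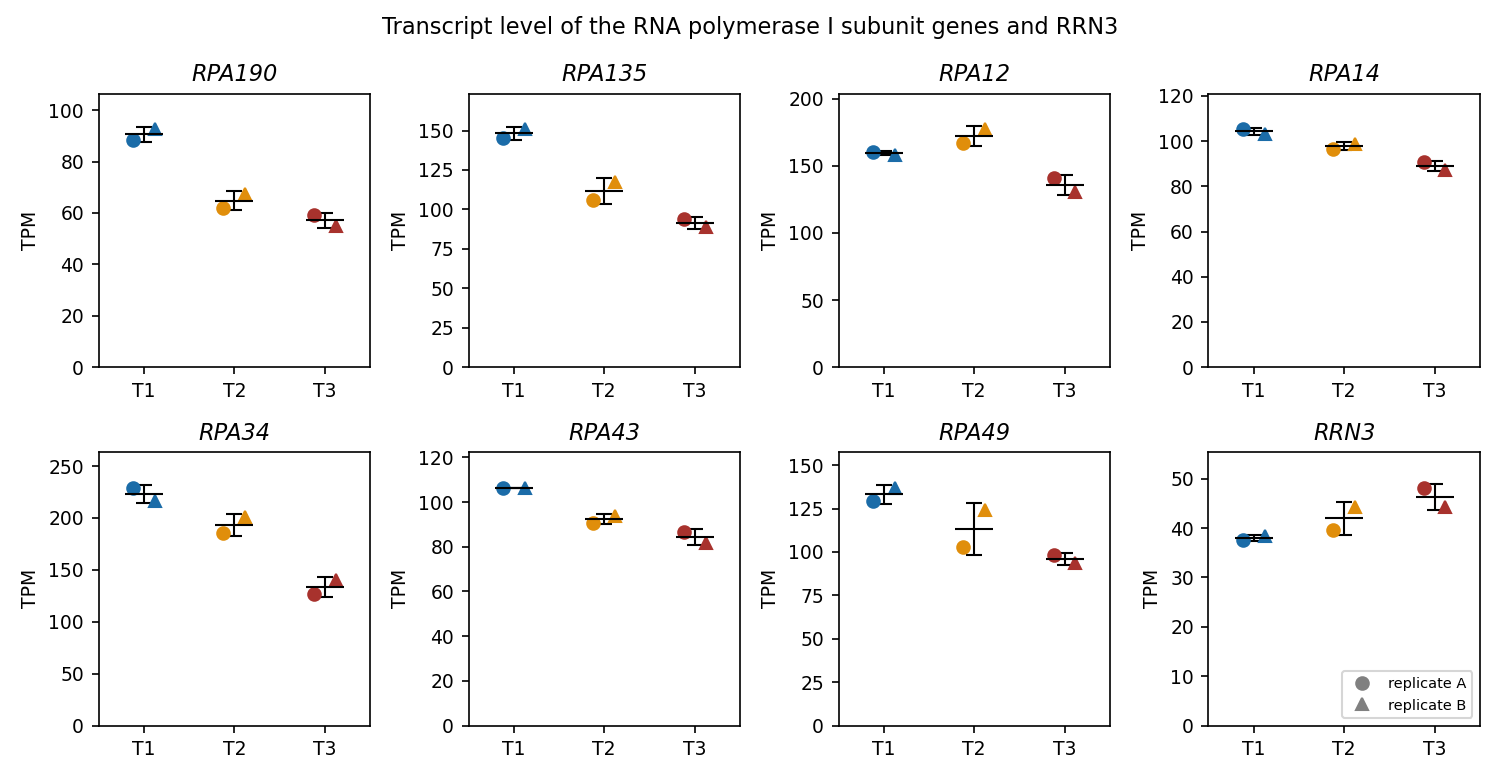
TPM of each gene in the 6 libraries, with circles for replicate A, triangles for replicate B, and bars for the mean and SD of each group (n = 2); each panel has its own axis from 0. The T3 points lie below the T1 points in all 7 subunit genes and above them in RRN3.

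RPA190 encodes the largest subunit, which forms the catalytic centre together with the product of RPA135. Its level was 88.5 and 92.6 TPM in T1 replicates A and B, 62.1 and 67.5 TPM in T2, and 59.1 and 55.0 TPM in T3. The groups did not overlap, and most of the distance lay between T1 and T2. It fell by 0.66 on the log2 scale from T1 to T3 (SE 0.10, limma adjusted p = 9.48e-05) and by 0.48 from T1 to T2 (adjusted p = 0.00422). Between T2 and T3 the log2 change of -0.18 did not pass (95% interval -0.39 to 0.03, limma adjusted p = 0.21).

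RPA135 encodes the second-largest subunit. It measured 145.4 and 150.8 TPM in T1, 105.7 and 117.6 TPM in T2, and 93.9 and 88.7 TPM in T3. The 3 groups were again separate, in the same order as for RPA190. From T1 to T3 it fell by 0.69 on the log2 scale (SE 0.10, limma adjusted p = 5e-05). It fell by 0.41 from T1 to T2 (limma adjusted p = 0.00995) and by 0.29 from T2 to T3 (limma adjusted p = 0.0466). The call from T1 to T2 was lost without T2 replicate A (limma adjusted p = 0.0951, the highest of 17 settings, with 0.00371 the lowest). The call from T2 to T3 was lost in 7 of 17 settings, in a range of 0.00703 to 0.251.

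The transcripts of the large subunits kept nearly the same proportion throughout. The ratio of RPA135 to RPA190 TPM was 1.64 and 1.63 in T1, 1.70 and 1.74 in T2, and 1.59 and 1.61 in T3. Of the 28 pairs of the 8 genes, these had the most similar profiles, with a root mean square distance of 0.046 between log2 values centred on each gene's mean over the 6 libraries. RPA43 and RPA190, the neighbours on chromosome XV, were not that close: RPA43 was nearest to RPA14, at 0.053.

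RPA34 and RPA49 encode the partners of the heterodimer that resembles TFIIF and helps in promoter opening and elongation. RPA34, the most abundant of the 8 by TPM, lay at 229.1 and 216.6 TPM in T1, 185.5 and 200.8 TPM in T2, and 127.0 and 140.3 TPM in T3. Here the larger drop lay between T2 and T3. Its log2 change from T1 to T3 was -0.73 (SE 0.09, limma adjusted p = 2.63e-05), the largest of the 8 in size. It fell by 0.53 from T2 to T3 (limma adjusted p = 0.00155), and the log2 change of -0.21 from T1 to T2 did not pass (limma adjusted p = 0.153).

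RPA49 lay at 129.2 and 137.0 TPM in T1, 102.8 and 123.9 TPM in T2, and 98.4 and 93.6 TPM in T3. The groups did not overlap, but the T2 replicates were further apart than for any other member. It fell by 0.47 on the log2 scale from T1 to T3 (SE 0.10, limma adjusted p = 0.00237), and neither step alone passed (limma adjusted p = 0.143 for T2 against T1 and 0.134 for T3 against T2). RPA34 had 1.77 and 1.58 times the TPM of RPA49 in T1, 1.80 and 1.62 times in T2, and 1.29 and 1.499 times in T3. Both T3 ratios lay below all T1 and T2 ratios.

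RPA43 and RPA14 encode the stalk, and the RPA43 product carries the surface that Rrn3 binds. RPA43 was at 106.4 and 106.3 TPM in T1, 90.6 and 93.8 TPM in T2, and 86.8 and 81.6 TPM in T3. It fell by 0.33 from T1 to T3 (SE 0.09, limma adjusted p = 0.00901), with groups that did not overlap. The call was lost without T3 replicate B (limma adjusted p = 0.0809, the highest of 17 settings, with 0.000513 the lowest). Neither step alone passed for RPA43 (limma adjusted p = 0.149 and 0.348).

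RPA14 had a narrower range, from 105.3 and 103.4 TPM in T1 through 96.5 and 98.9 TPM in T2 to 90.6 and 87.3 TPM in T3. The libraries stood in the same order of groups as for RPA43, without overlap. The log2 change of -0.23 from T1 to T3 (95% interval -0.42 to -0.03) missed the threshold (limma adjusted p = 0.0534). It was past it in 5 of 17 settings, with adjusted p from 0.00189 to 0.228. The ratio of RPA43 to RPA14 was 1.01 and 1.03 in T1 and 0.93 to 0.96 in T2 and T3.

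RPA12 encodes a small zinc-binding subunit that acts in RNA cleavage and in termination. Its course differed in shape from that of the other subunit genes, with 160.5 and 158.5 TPM in T1, 167.3 and 177.4 TPM in T2, and 140.9 and 130.6 TPM in T3. Both T2 libraries lay above T1, and both T3 libraries lay below it. The log2 change of 0.11 from T1 to T2 did not pass (95% interval -0.08 to 0.31, limma adjusted p = 0.446). From T2 to T3 it fell by 0.34 (SE 0.09, limma adjusted p = 0.0163), a call that was lost without T2 replicate B (0.097) and without T3 replicate B (0.123), in a range of 0.004 to 0.123. From T1 to T3 the log2 change was -0.23 with a limma adjusted p = 0.0497, just inside the threshold, and it was past the threshold in 6 of 17 settings (0.00182 to 0.273). It was lost without any 1 of the 6 libraries.

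The proportion of RPA12 to RPA190 differed between the groups. RPA12 had 1.81 and 1.71 times the TPM of RPA190 in T1, 2.69 and 2.63 times in T2, and 2.38 and 2.37 times in T3. Whether the steps themselves differed was tested as the T2 to T3 change minus the T1 to T2 change. That difference was -0.45 for RPA12 (limma adjusted p = 0.237), -0.32 for RPA34 (0.432) and 0.30 for RPA190 (0.492). None of the 8 genes passed in limma, and 1, RPA12, had an unadjusted limma p under 0.05 (0.0126). At that unadjusted threshold 312 of the 6046 genes tested had a lower and 469 a higher second step, so 1 gene of 8 does not stand out. Over all genes, 0.314% had a lower and 0.761% a higher second step by this test, so few genes of any kind were called.

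RRN3 encodes the initiation factor, known as TIF-IA in mammals. It was the least abundant of the 8, at 37.6 and 38.4 TPM in T1, 39.7 and 44.3 TPM in T2, and 48.2 and 44.4 TPM in T3. On TPM as deposited the groups did not overlap, although T2 replicate B and T3 replicate B nearly met. RRN3 rose 1.21-fold from T1 to T3 on the log2(TPM + 1) scale (log2 change 0.28, SE 0.10, limma adjusted p = 0.0371). The steps did not pass alone, with log2 changes of 0.14 and 0.14 (limma adjusted p = 0.388 and 0.361).

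The call for RRN3 depended on scaling. Relative to the median of all genes, its log2 change was 0.19. It remained above 0 in all 17 settings (0.12 to 0.34), but it passed in 9 of them, with adjusted p from 0.0104 to 0.231. The call was lost when libraries were scaled without the ribosomal protein genes (limma adjusted p = 0.207), and without T1 replicate A (0.113), T1 replicate B (0.0771), T3 replicate A (0.231) or T3 replicate B (0.0628). Set against the mean TPM of the 7 subunit genes, RRN3 stood at 0.273 and 0.278 in T1, 0.342 and 0.352 in T2, and 0.484 and 0.459 in T3. This ratio within a library does not depend on its scaling, and its groups did not overlap. It is not a measure of RRN3 alone, because the subunit mean below it fell. That mean was 137.8 and 137.9 TPM in T1 and 99.5 and 96.8 TPM in T3.

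**Figure D2:**
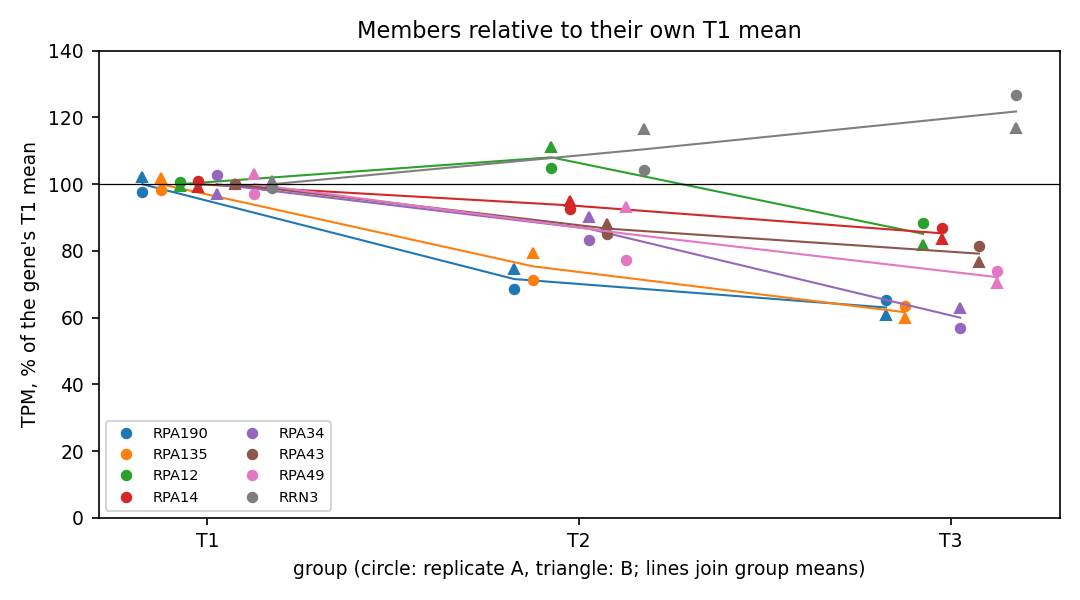
TPM of each gene as a percentage of its own T1 mean, by group, with circles for replicate A, triangles for replicate B and lines through the group means (n = 2). RPA190, RPA135 and RPA34 end near 60% in T3, RPA12 stands above 100% in T2 and below it in T3, and RRN3 ends at 121.8%.

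Counted by step, 2 of the 8 genes fell from T1 to T2 (RPA190 and RPA135) and 0 rose, with 5 lower and 0 higher at an unadjusted p under 0.05. Over all genes 6.1% fell and 11.9% rose in that comparison, so that 33.8% of calls were falls (53.5% when scaled without ribosomal protein genes). At an unadjusted limma p under 0.05, 736 of the 6046 genes tested were lower and 1161 were higher. From T2 to T3, 3 fell (RPA135, RPA12 and RPA34) and 0 rose, with 4 lower and 0 higher at an unadjusted p under 0.05. Over all genes 6.09% fell and 15.8% rose, so that 27.8% of calls were falls (53.6% when scaled without ribosomal protein genes). Without adjustment, 630 of the 6046 genes were lower and 1478 were higher at the same limma p. The comparisons share libraries, T2 being in both steps, so a high or low T2 library moves both in opposite directions. In T2, replicate B was above replicate A for all 8 genes. This order was not particular to them. The median over genes of TPM relative to the gene's geometric mean was 0.954 in T2 replicate A and 1.025 in T2 replicate B. The count from T1 to T2 was 1 without T2 replicate A, and the count from T2 to T3 was 1 without T2 replicate B and also 1 without T3 replicate B.

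**Figure D3:**
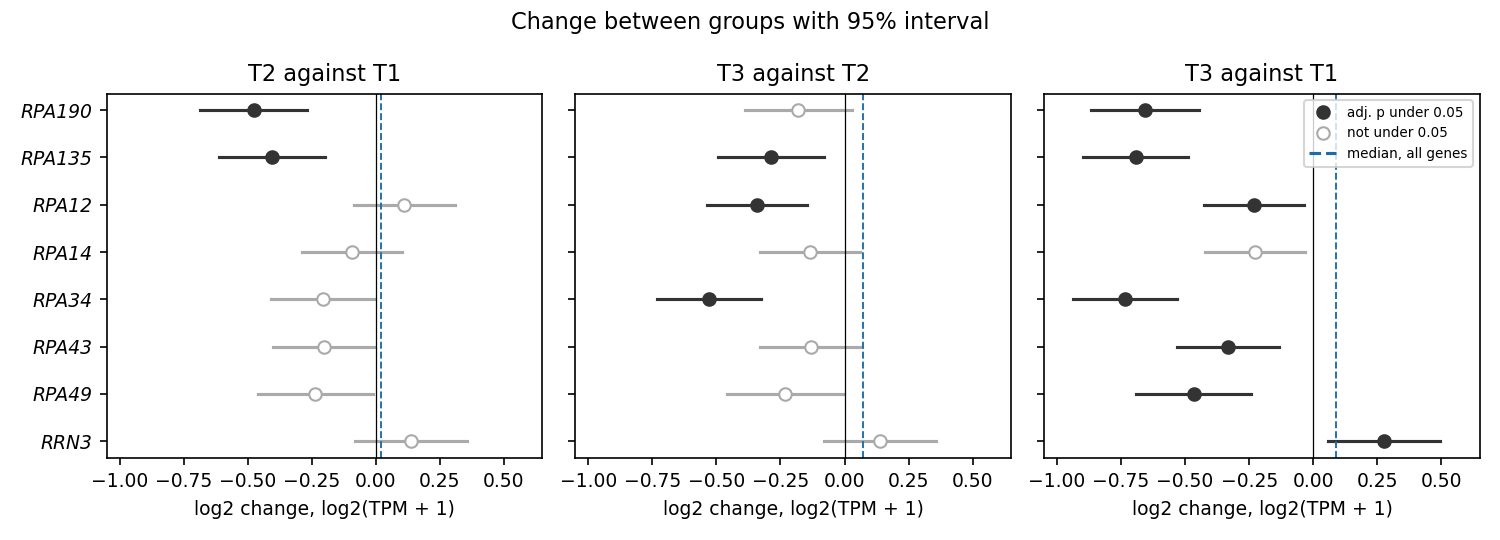
Log2 change of each gene with its 95% interval from limma for T2 against T1, T3 against T2 and T3 against T1; filled points passed an adjusted p of 0.05, and the dashed line is the median of all genes tested. RPA190 and RPA135 passed from T1 to T2, RPA135, RPA12 and RPA34 from T2 to T3, and all but RPA14 from T1 to T3, with RRN3 to the right of 0.

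By order of libraries alone, both T3 libraries lay below both T1 libraries in 7 of the 8 genes, which held for 29.3% of all genes tested, and above them in 1, which held for 45.7%. In 6 genes (RPA190, RPA135, RPA14, RPA34, RPA43 and RPA49) every T1 library was above every T2 library and every T2 library above every T3 library, an order found in 9.36% of all genes. RRN3 had the reverse order, as did 20.2% of all genes. These orders are of TPM as deposited. RRN3 was at 44.28 TPM in T2 replicate B and 44.36 TPM in T3 replicate B. Scaling without ribosomal protein genes divides these libraries by 1.011 and 1.044, which reverses their order, so T2 and T3 overlap. With the level in T3 as the measure, RPA12 and RPA34 were the highest and close to each other (135.8 ± 7.26 and 133.7 ± 9.41 TPM, SD, n = 2). RPA49, RPA135, RPA14 and RPA43 followed at 96.0 ± 3.39, 91.3 ± 3.64, 89.0 ± 2.32 and 84.2 ± 3.66 TPM. Of these 4, the libraries of neighbours in this order overlapped except for RPA14 and RPA43, which stood just apart. RPA190 (57.1 ± 2.90 TPM) and RRN3 (46.3 ± 2.70 TPM) were the lowest and did not overlap.

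The genes around RNA polymerase I were described by lists that hold none of the 8. From T1 to T3, 16.9% of all genes tested fell and 31% rose, the shares for list counts on TPM as deposited. List counts under other scalings have other shares beside them. Of the 6046 genes, 1563 fell after median of ratios scaling and 1722 after quantile normalization. When scaled without ribosomal protein genes, 1843 fell, against 1024 on TPM as deposited. Of 7 genes of subunits shared between polymerases, 4 fell from T1 to T3 and 0 rose, with a median log2 change of -0.36 (4 to 7 lower under the alternatives, applied to these lists after seeing the data). RPC40, whose product nucleates assembly of polymerases I and III, went from 260.4 and 272.4 TPM in T1 to 168.1 and 165.7 TPM in T3 (log2 change -0.67, limma adjusted p = 2.96e-05). RPC10, the most abundant of the list, did not pass (687.8 ± 62.6 TPM in T1 and 639.5 ± 41.2 TPM in T3, SD, n = 2).

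Of 8 other initiation factor genes of RNA polymerase I, 2 fell and 0 rose (16.9% and 31% of all genes), and the median log2 change was -0.09. The count lower was 3 after median of ratios scaling, quantile normalization and scaling without ribosomal protein genes. It was also 3 with the trend over gene length removed. SPT15, which encodes the TATA-binding protein used by all 3 polymerases, fell from 182.8 ± 9.65 TPM to 114.1 ± 5.62 TPM (SD, n = 2, limma adjusted p = 0.000105). Without T1 replicate B, T3 replicate A or T3 replicate B the count lower was 1, and without T1 replicate B 1 gene was higher. Of 10 genes of rDNA chromatin, termination and elongation, 2 fell and 0 rose, with a median of -0.06 that ran from -0.22 to 0.03 over the alternatives. The count lower was 1 without T1 replicate B, T3 replicate A or T3 replicate B, and 5 when scaled without ribosomal protein genes. HMO1, a high mobility group protein that sits on active rDNA, fell from 169.4 and 169.8 TPM to 92.1 and 92.2 TPM (log2 change -0.87, limma adjusted p = 3.56e-06). SPT4, an elongation factor gene and the most abundant of that list, was at 182.3 ± 14.9 TPM in T1 and 189.7 ± 12.5 TPM in T3 and did not pass.

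Of 7 genes specific to RNA polymerase II, 3 fell and 1 rose (median log2 change -0.17), from RPB9 at -0.64 (limma adjusted p = 0.000129) to RPB11 at 0.36 (limma adjusted p = 0.00621). The count lower was 5 after median of ratios scaling, quantile normalization and scaling without ribosomal protein genes. The median ran from -0.33 to -0.085 over the alternatives. The rise of RPB11 was lost without T1 replicate B (limma adjusted p = 0.0556) and when scaled without ribosomal protein genes (0.0709), and it passed in 15 of 17 settings (0.00361 to 0.0709). RPB9 is related in sequence to RPA12. RPB4, a stalk subunit gene and the most abundant, lay at 304.1 ± 7.15 TPM in T1 and 322.7 ± 21.8 TPM in T3. Of 10 for RNA polymerase III, 3 fell and 1 rose (16.9% and 31% of all genes), and the median of -0.04 ran from -0.20 to 0.02 over the alternatives. RPC17, a stalk subunit gene, went from 76.2 ± 7.56 TPM to 40.4 ± 5.71 TPM (SD, n = 2, limma adjusted p = 4.67e-05). RPC34, a gene of an initiation subunit, rose 1.19-fold (limma adjusted p = 0.0471). That call passed in 6 of 17 settings (0.0438 to 0.341) and was lost without any 1 of the T1 and T3 libraries. RPC11, the most abundant, was at 208.6 ± 11.1 TPM in T1 and 186.8 ± 34.3 TPM in T3 and did not pass.

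The mean TPM of the 7 polymerase I subunit genes was 137.8 and 137.9 in T1, 115.8 and 125.7 in T2, and 99.5 and 96.8 in T3. For the 7 genes specific to RNA polymerase II the means were 121.7 and 124.7, 120.8 and 126.1, and 110.3 and 114.5. The ratio of these means was 1.13 and 1.11 in T1, 0.958 and 0.997 in T2, and 0.902 and 0.845 in T3. That these means crossed rested on RPB4, the most abundant polymerase II gene. Without RPB4, a setting chosen after seeing the data, the ratio was 1.496 and 1.468 in T1, 1.39 and 1.43 in T2, and 1.28 and 1.252 in T3, so polymerase I stayed above polymerase II in all 6 libraries and the groups still did not overlap. The ratio of medians was also above 1 in all 6, at 1.49 and 1.51 in T1, 1.06 and 1.27 in T2, and 1.17 and 1.03 in T3, where T2 and T3 overlapped. Against RNA polymerase III the ratio was 1.70 and 1.68 in T1, 1.48 and 1.62 in T2, and 1.41 and 1.29 in T3. Groups did not overlap in this ratio to polymerase III. No test was made of these ratios, because the members were chosen with results known, a limit that also bears on the counts of members called.

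**Figure D4:**
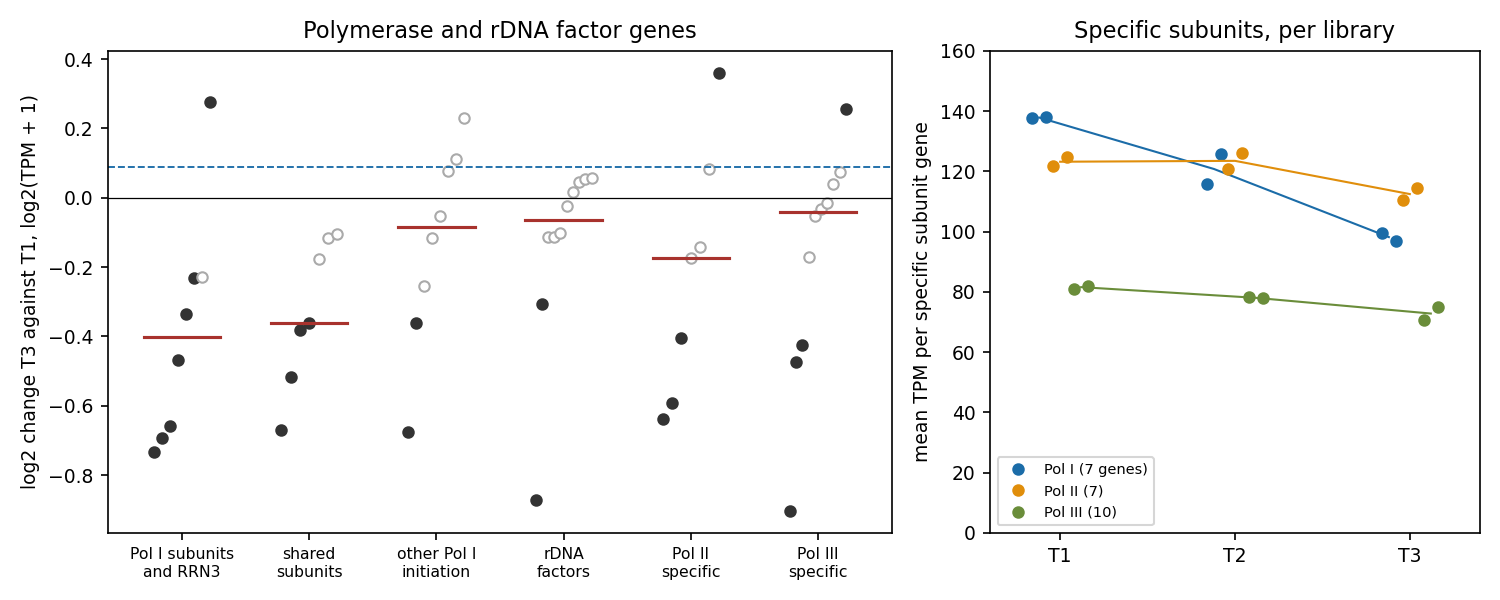
Left, log2 change from T1 to T3 of each gene in 6 lists (filled where the adjusted p was under 0.05, red bars for list medians, dashed line for the median of all genes tested); right, mean TPM per specific subunit gene in each library for RNA polymerases I, II and III, with lines through the group means. The polymerase I mean lies above the polymerase II mean in T1 and below it in T3, a crossing that rests on RPB4: without it polymerase I lies above in all 6 libraries.

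The genes whose course was most like the mean of the 8, among those with at least 10 TPM, were GPD2, RPL5, TIF5, LHP1 and RPB8, at root mean square distances of 0.026 to 0.029 over the 6 libraries. GPD2 encodes a glycerol-3-phosphate dehydrogenase, RPL5 a protein of the large ribosomal subunit, TIF5 the initiation factor eIF5, LHP1 the yeast La protein, and RPB8 a subunit shared by all 3 polymerases. GPD2 measured 161.0 and 167.3 TPM in T1, 140.7 and 155.6 TPM in T2, and 134.3 and 123.9 TPM in T3. It had T2 replicate B above A and T3 replicate A above B. The median of ratios factors had that order too, at 0.954 and 1.025 in T2 replicates A and B, and 1.058 and 1.027 in T3. For single members the nearest genes were MEP1, an ammonium permease gene, for RPA190 (0.031), SPT15 for RPA135 (0.028), CPR1 for RPA12 (0.024) and RPL23A for RPA14 (0.011). They were IMP3 for RPA34 (0.033), RHB1, a Rheb-like GTPase gene, for RPA43 (0.017), NPR1, a protein kinase gene, for RPA49 (0.017) and BNA5, a kynureninase gene, for RRN3 (0.016). RPL23A has a near-identical copy and is uncertain. CPR1, a cyclophilin gene, showed the shape of RPA12, at 3347 and 3226 TPM in T1, 3537 and 3593 TPM in T2, and 2959 and 2761 TPM in T3. IMP3, a gene of the small-subunit processome, ran at 114.1 and 107.0, 95.9 and 95.8, and 62.2 and 69.6 TPM in T1, T2 and T3. No nearest gene of a member was itself a member, and libraries of a group are not independent points, so these distances are descriptions.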

How the data were processed

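Per the labels' protocols, oligo(dT)-enriched RNA was made into NEBNext Ultra libraries and sequenced in pairs on a NovaSeq. The submitters' processing notes name STAR 2.5.2b, featureCounts, Subread 1.5.2 and build R64; settings, annotation and strand are not given in the sources used here. The authors deposited TPM values, per the file name, and each library sums to the same total. Of 6401 entries, 1 without a name was left out. The 6046 entries whose mean reached 1 TPM were transformed as log2(TPM + 1). limma 3.58.1 (R 4.3.3) fitted 3 group means to all 6 libraries, with an abundance trend and 3 residual degrees of freedom. Its moderation had 10.7 prior degrees of freedom, so each gene's SE and p-value rested largely on the spread of genes of like abundance. Tests were two-sided, adjusted by Benjamini-Hochberg over all genes at 0.05. The fit was also run on data simulated with its own estimated spread, which cannot check that spread. Upstream windows were cut from the RefSeq R64 genome at annotated start codons. Python 3.11.15 with pandas 2.3.3 and matplotlib 3.10.9 made tables and plots. Counting errors cover counting only, since PCR copies cannot be removed. The members, lists, tests and 17 alternatives were chosen with earlier results of these data known. Besides the 8 members, the named-gene rule took from each list the most abundant gene and the largest rise and fall past the threshold in T3 against T1, and the nearest genes by distance. A planned comparison of protein sequences was not made. Replicate letters are not stated to mark shared cultures, so the fit had no block.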

Additional observations from a re-analysis of the deposited data

How the results depend on the processing

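For the 8 members and 3 comparisons between groups, 358 of 408 log2 changes under 17 alternatives kept their direction and their side of the threshold, 30 lost it, 20 gained it and 0 reversed. The count of members lower in T3 than in T1 was 6, and 4 to 7 under the alternatives. The count higher was 1, and 0 after median of ratios scaling, quantile normalization, scaling without ribosomal protein genes and without the abundance trend (0 to 1 leaving out a library). For T2 against T1 the count lower was 2, and 4 after median of ratios scaling, 5 after quantile normalization, 4 after scaling without ribosomal protein genes, and 1 to 2 leaving out a library. For T3 against T2 it was 3, and 5, 5 and 7 under those scalings, and 1 to 3 leaving out a library. These scalings also moved the median of all genes from T1 to T3 from 0.088 to between -0.063 and -0.004, and the count of all genes lower from 1024 (35.3% of calls) to 1563 (49.6%), 1722 (54.8%) and 1843 (57.9%). For T2 against T1 the share of calls that were lower went from 33.8% to at most 53.5%. For T3 against T2 the count of all genes lower went from 368 (27.8% of calls) to 683 (46.4%), 730 (50.8%) and 780 (53.6%). The cause of these shifts was not tested. The step difference had 0 members called under every alternative run. With the replicate block the counts lower were 5, 2 and 2 for T3 against T1, T2 against T1 and T3 against T2, with RPA12 (adjusted p = 0.0611) and RPA135 (0.0578) lost in the first and the last. Differences of A and B correlated at 0.132 (T1 and T2), -0.058 (T1 and T3) and -0.15 (T2 and T3). Each group gives a single such difference per gene, so these values cannot decide whether the replicate letters pair the libraries. A fit of only the groups compared could not give the step difference. Without a library, its group's remaining library is assumed to vary like the others. Depth gave single values a counting error of at most 3.43%, below the changes called.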
